A study of Mus musculus with 21 samples.

Results

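The serpins are a family of proteins that share one fold, and most of them inhibit proteases. Their genes were taken as every symbol made of "Serpin", a clade letter from a to i, a number and an optional last letter. The gene-name column of the deposited data held 63 such symbols. Of these, 42 could be linked by Ensembl identifier to a count table, and 37 had at least 10 reads summed over 17 kidneys, among 21657 genes in the tables. These 37 genes are the members described here. Another 5 linked genes had fewer reads (Serpina3m, Serpina9, Serpinb10, Serpinb12 and Serpinb1c), and the remaining 21 symbols were not analysed here.

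RNA was sequenced from whole kidneys of female apoE knockout mice on the C57BL/6J background, a strain without apolipoprotein E that becomes hypercholesterolemic, so every group carried the knockout. From 4 weeks of age the mice were fed a diet for 14 weeks, and they were 18 weeks old at collection. The control group (Con, 5 mice) ate chow, the adenine group (Ade, 6 mice) ate chow with 0.2% adenine, which injures the kidney tubules and gives a model of chronic kidney disease, and the third group (Ade + IMC, 6 mice) ate the adenine chow with 0.06% iodomethylcholine (IMC), an inhibitor of the gut microbial enzyme that makes trimethylamine from choline. The Con + IMC group was not analysed here. Libraries held 5444833 to 11680809 reads in genes. In whole kidney, fewer cells of a type and less RNA per cell cannot be told apart. Havcr1, a gene of injured tubule cells, had 1 to 7 reads in each Con mouse, 549 to 2104 in each Ade mouse and 192 to 1580 in each Ade + IMC mouse. Reads of Apoe itself numbered 47 to 214 in every mouse, and since the part of the gene that the knockout removes is not given in the sources used here, they do not check the genotype.

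An inhibitory serpin presents an exposed reactive-centre loop as bait. When the target protease cuts the loop, the serpin changes shape and traps the protease in a covalent complex, so that both molecules are used up and the complex is cleared by receptors of the LDL receptor family. Clades A and C to G are mostly secreted and control coagulation, fibrinolysis, complement and leukocyte proteases, whereas clade B serpins are mostly intracellular and protect cells from their own granule and lysosomal proteases. Some members inhibit nothing: Serpinh1 is a chaperone of collagen in the endoplasmic reticulum, and Serpinf1 is an anti-angiogenic factor. In fibrotic kidneys, interest in the family comes from coagulation, complement and the turnover of extracellular matrix, which its target proteases help to degrade.

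Several members are tandem copies on chromosome 12, and the sequences show which of them short reads can separate. Within the printed promoters of the Serpina3 cluster (the last 200 bases before the RefSeq start site, GRCm38.p6, 5′ to 3′, plus strand), capitals mark the letters TTCNNNGAA, the pattern bound by STAT transcription factors, and TATAAA, both searched on either strand.
Serpina3f, chr12:104214344-104214543: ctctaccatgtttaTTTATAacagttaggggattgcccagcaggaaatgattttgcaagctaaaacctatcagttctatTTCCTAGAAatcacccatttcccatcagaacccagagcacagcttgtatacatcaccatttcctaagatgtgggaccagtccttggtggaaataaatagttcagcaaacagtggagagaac
Serpina3g, chr12:104235947-104236146: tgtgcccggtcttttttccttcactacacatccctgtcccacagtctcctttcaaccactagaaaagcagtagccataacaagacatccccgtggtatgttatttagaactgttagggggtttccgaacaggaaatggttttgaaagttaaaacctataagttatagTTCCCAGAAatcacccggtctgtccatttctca
Serpina3i, chr12:104262922-104263121: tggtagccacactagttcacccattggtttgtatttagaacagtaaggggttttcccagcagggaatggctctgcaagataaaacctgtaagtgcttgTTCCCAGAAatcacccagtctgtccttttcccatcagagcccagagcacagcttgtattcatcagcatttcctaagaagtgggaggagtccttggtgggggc
Serpina3n, chr12:104406508-104406707: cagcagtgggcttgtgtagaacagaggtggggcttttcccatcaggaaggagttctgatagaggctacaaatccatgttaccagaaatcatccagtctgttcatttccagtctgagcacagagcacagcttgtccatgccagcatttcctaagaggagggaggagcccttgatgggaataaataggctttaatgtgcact

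The match lay 121 to 113 bases before the start site in Serpina3f, 33 to 25 bases before it in Serpina3g and 102 to 94 bases before it in Serpina3i. In Serpina3g and Serpina3i it stood inside a common run of 17 identical bases (gttcccagaaatcaccc). The longest run shared by Serpina3f and Serpina3g, 11 bases (agaaatcaccc), began inside the match of both and ended beyond it. The Serpina3n window held no match, although it shared 10 of these letters with Serpina3g (ccagaaatca). Promoters were read for 12 of the members named in detail, and 5 of them held TTCNNNGAA, namely Serpina3f, Serpina3g, Serpina3i, Serpina1f and Serpinb6a. Among all 32851 promoter windows of this length, 5.49% held it. The AP-1 letters TGANTCA were in none of the 12 and in 5.48% of all windows, and TATAAA was in 1 of the 12 and in 9.96% of all windows. Serpina10, Serping1 and Serpinb1a were not among the promoters read.

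On chromosome 12 of GRCm38 all clade A members except Serpina7, which is on chromosome X, lie in 1 region. Serpina10 spans chr12:103614786-103631444, Serpina1f chr12:103688044-103695529 and Serpina1b chr12:103728156-103830373, all on the minus strand, with Serpina1d inside the annotated span of Serpina1b, and the 4 Serpina3 genes shown above follow on the plus strand, Serpina3f at chr12:104214544-104221129, Serpina3g at chr12:104236245-104241939, Serpina3i at chr12:104263122-104269372 and Serpina3n at chr12:104406729-104414329. Serpinf1 (chr11:75409769-75422701) and Serpinf2 (chr11:75431732-75439591) are neighbours on chromosome 11. Serping1 lies at chr2:84765387-84775444 and Serpinh1 at chr7:99345376-99353239.

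The Serpina1 genes encode copies of alpha-1 antitrypsin, the main inhibitor of neutrophil elastase, and their reading frames differ at 86 positions over 5 genes, in the 1242 bases that were compared. The frame of Serpina1a was longer, at 1311 bases, and only its last 1242 were used. The 45 bases where these differences are densest, bases 1116 to 1160 of the frame, lie towards its end, where serpins encode the reactive-centre loop. Capitals mark the 17 positions at which the copies differ.
Serpina1a: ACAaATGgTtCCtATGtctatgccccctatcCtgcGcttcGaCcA
Serpina1b: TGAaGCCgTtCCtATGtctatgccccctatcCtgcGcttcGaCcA
Serpina1c: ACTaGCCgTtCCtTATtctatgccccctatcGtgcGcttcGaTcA
Serpina1d: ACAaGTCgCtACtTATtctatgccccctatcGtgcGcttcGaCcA
Serpina1e: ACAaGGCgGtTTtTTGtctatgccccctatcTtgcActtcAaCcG

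Reads of 50 bases cannot tell the copies apart everywhere. Identity over the frame was 98.5% between Serpina1a and Serpina1c and 97.0% between Serpina1a and Serpina1b. Of all 50-base windows in the transcripts of each gene, 57.6% were also found in another gene for Serpina1a, 29.5% for Serpina1b, 79.3% for Serpina1c, 50.9% for Serpina1d and 34.6% for Serpina1e. The counts of single Serpina1 copies are uncertain to that extent. In the Serpina3 cluster the shares were lower, at 6.90% for Serpina3n, 10.6% for Serpina3f, 15.5% for Serpina3g, 15.9% for Serpina3i and 21.9% for Serpina3h. No window of Serpinf1, Serpinf2, Serping1, Serpinh1 or Serpina1f occurred in another gene. In Serpinb6a, 1587 of 5409 exonic bases overlap exons of opposite-strand genes (1110046J04Rik, Nqo2 and Ripk1), and the strand setting of the counting is not given in the sources used here.

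The summed level of the family was higher in adenine kidneys, and its make-up differed. Levels are CPM, read counts relative to the scaled size of the library, divided by kilobases of exon where genes are compared with each other. Summed over the 37 members, the level was 279.0 to 316 CPM per kilobase in Con, 513 to 619 in Ade and 501 to 610.2 in Ade + IMC. In Con kidneys the order was led by Serpina1f, a more distant copy of the Serpina1 group, at 119.7 ± 13.9 CPM per kilobase (SD, n = 5), followed by Serpinh1 at 58.5 ± 4.90, Serpinf2 at 34.8 ± 6.64 and Serping1 at 30.3 ± 5.25. The ranges of Serpinf2 and Serping1 overlapped, so their order is not fixed by these mice. In Ade kidneys Serping1 stood at 167 ± 30.6 (n = 6) and Serpinh1 at 153 ± 13.8, again with overlapping ranges, while Serpina1f stood at 51.9 ± 17.5. As a share of the family's summed level per kilobase, Serpina1f held 40.1% ± 3.04 in Con, 8.98% ± 2.98 in Ade and 13.1% ± 4.49 in Ade + IMC. Serping1 held 10.2% in Con and 28.7% in Ade, and Serpinh1 19.6% and 26.6%, so much of the higher sum lay in these 2 genes.

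**Figure D1:**
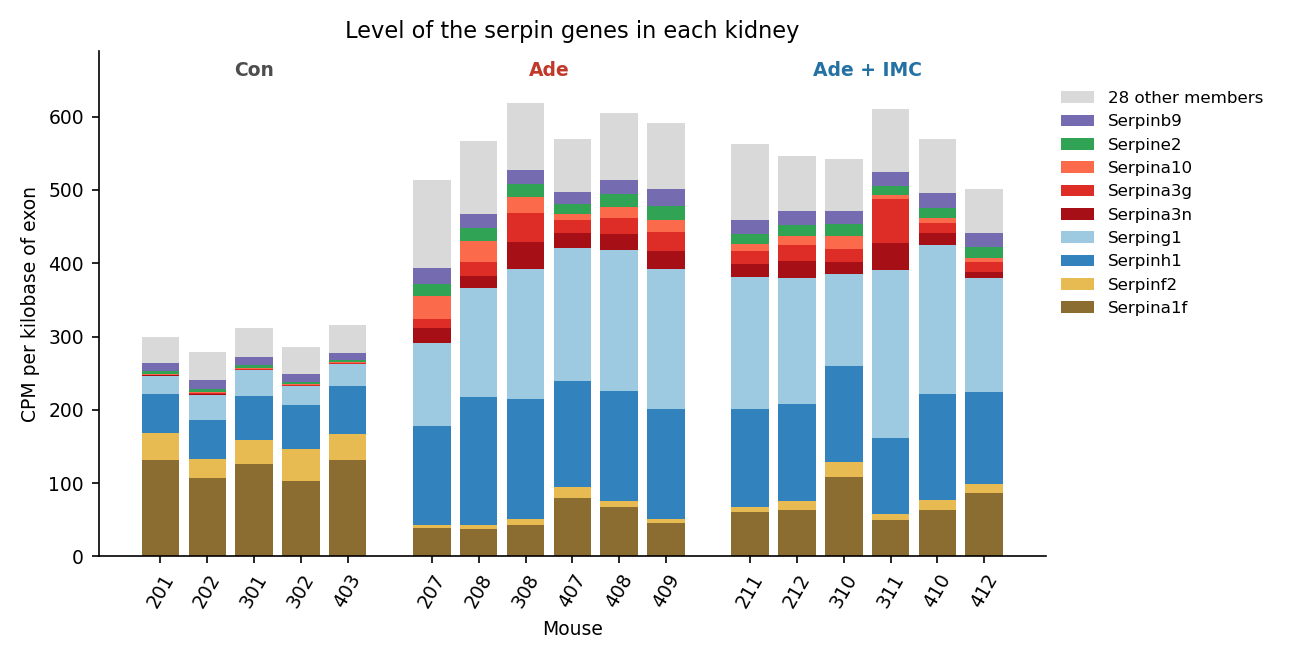
Stacked bars give the level of the serpin genes in each of the 17 kidneys (y axis, CPM per kilobase of exon, summed over the 37 members), with 9 members in colour and the other 28 in grey. The bars reach 279.0 to 316 in Con and 501 to 619 in both adenine groups, and the brown part, Serpina1f, is the largest part of every Con bar.

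The comparison of Ade with Con asks which serpin genes respond to the adenine diet. edgeR's quasi-likelihood test over 14612 genes called 67.3% of all genes at an adjusted p below 0.1, 35.1% higher and 32.2% lower, and among the 22 members tested it called 18 higher and 2 lower. No Con mouse reached the cutoff of the filter on low counts for 3 of the 18 (Serpina1b, Serpina3f and Serpina3i). These 3 passed it only through the Ade mice, so they had to differ. Serpina3n had 7, 11, 1, 2 and 2 reads in the Con mice, so its pass also rested mainly on the Ade mice. The median log2 fold change was 1.88 over the tested members and 0.02 over all genes. The lowest Ade mouse was above the highest Con mouse for 16 of the 22 tested members, against 22.4% of all genes, and below the lowest Con mouse for 2, against 20.6%. The members that fell were Serpinf2 and Serpina1f, and Serpina1d and Serpinc1 were not called.

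Serpina3n had the largest rise of the family. It encodes a secreted relative of antichymotrypsin that inhibits granzyme B and leukocyte proteases. In the 5 Con mice its level was 0.706, 1.59, 0.135, 0.260 and 0.261 CPM, from 7, 11, 1, 2 and 2 reads. Ade mice ranged from 34.7 to 76.9 CPM with a median of 44.2, and Ade + IMC mice from 18.5 to 75.1 with a median of 34.2. Every adenine-fed mouse was above every Con mouse. The fold was 82.4 in Ade against Con (log2 fold change 6.37 ± 0.37, SE, adjusted p = 2.21e-08) and 67.0 in Ade + IMC against Con (log2 fold change 6.07 ± 0.50). The size of both folds rests on the few Con reads and on the prior count of the fit. Mouse 202 was the highest of the Con mice, and without it the log2 fold changes were 7.01 and 6.71.

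Its cluster neighbour Serpina3g, an inhibitor of cysteine cathepsins known from lymphocytes and macrophages, was the better expressed gene in Con kidneys. Con values were 2.62, 2.60, 2.71, 2.86 and 3.53 CPM. Ade values ran from 26.6 to 84.2 CPM with a median of 43.5, and Ade + IMC values from 27.5 to 127 with a median of 38.4. The Ade and Ade + IMC ranges overlapped widely, and both lay above Con. The log2 fold change was 4.10 ± 0.30 in Ade (adjusted p = 1.35e-07) and 4.15 ± 0.45 in Ade + IMC, each against Con.

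Serpina3f was low in Con, at 0.706, 0.433, 0.677, 0.649 and 0.784 CPM, and reached 3.18 to 12.5 in Ade (median 5.89) and 2.05 to 31.2 in Ade + IMC (median 3.72). Both adenine groups stood above Con, and mouse 311 stood above the rest of its group. Its log2 fold change was 3.29 ± 0.42 in Ade (adjusted p = 2.07e-05) and 3.60 ± 0.82 in Ade + IMC (adjusted p = 0.00231), the latter being 2.32 without mouse 311. Serpina3f passed the filter on low counts only through the adenine-fed mice, so these p-values are no further evidence. Serpina3i, the least abundant of the 4 genes whose promoters are shown, had 2 reads in all Con mice together and 70 in all Ade mice, a ratio of 30.2 with a 95% counting interval of 8.06 to 255. Its fitted log2 fold change of 4.56 ± 0.51 rests on those 2 reads and on the prior count of the fit. Serpina3h had 1 read in all Con mice and 2 to 11 reads in each Ade mouse, and did not pass the filter on low counts. All 5 of these Serpina3 genes had higher values in every Ade mouse than in any Con mouse, as 22.4% of all tested genes did. The other Serpina3 members, Serpina3c and Serpina3k, had few reads and overlapped Con.

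Leukocyte markers were higher in the same mice. Summed over 12 markers, their level was 187 to 224 CPM in Con, 1098 to 1907 in Ade and 946 to 2073 in Ade + IMC, and all 12 were called higher in Ade, where 35.1% of all genes were, 4 of them (Cd3d, Cd79a, Ms4a1 and Nkg7) having passed the filter on low counts only through the Ade mice. The highest Ade + IMC mouse was 311 for Serpina3f, Serpina3g, Serpina3n and the leukocyte sum (2073 CPM), and the highest Ade mouse was 308 for the same genes and the same sum (1907 CPM). Serpina3i and Serpina3h were highest in other mice, in 409 and 408 of Ade and in 211 and 310 of Ade + IMC. The part of the leukocyte markers in the Serpina3 result was not tested.

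Among the Serpina1 copies, Serpina1b and Serpina1a rose and Serpina1d was not called. Serpina1b measured 0.807, 1.01, 0.813, 0.260 and 0.523 CPM in Con, 4.73 to 23.4 in Ade with a median of 6.30, and 2.49 to 7.25 in Ade + IMC with a median of 5.20. The 2 highest mice were Ade mice 207 and 208, and neither adenine group overlapped Con. Its log2 fold change in Ade was 3.89 ± 0.54 (adjusted p = 3.99e-05), and that of Serpina1a was 2.24 ± 0.41 (adjusted p = 0.00037). Serpina1b passed the filter on low counts only through the Ade mice, so its p-value is no further evidence. Serpina1d differed by 0.19 ± 0.29 (adjusted p = 0.591), with 5.65 to 10.43 CPM in Con and 4.32 to 17.7 in Ade. In the stretch printed above the copies carry different letters, but reads from windows they share could have been assigned to any copy or to none.

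The more distant Serpina1f moved the other way and, with no shared window, is not subject to that ambiguity. Con mice had 418, 339.9, 404, 327 and 418 CPM. Ade mice had 119 to 256 CPM with a median of 139, and Ade + IMC mice 159 to 346 with a median of 200.2. Every Ade mouse lay below every Con mouse, whereas mouse 310 of the Ade + IMC group lay inside the Con range. The log2 fold change was -1.19 ± 0.19 in Ade (adjusted p = 0.000119) and -0.76 ± 0.17 in Ade + IMC (adjusted p = 0.00185).

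The inhibitors of coagulation in clades A and C differed from each other. Serpina10, the protein Z-dependent inhibitor of factor Xa, had 3.53, 3.03, 3.11, 2.60 and 2.74 CPM in Con, 30.3 to 109 in Ade (median 64.5) and 18.8 to 62.6 in Ade + IMC (median 29.0). Both adenine groups were above all Con mice. It rose 23.3-fold in Ade (log2 fold change 4.54 ± 0.34, adjusted p = 1.78e-07). Antithrombin, Serpinc1, was low, at 0.303 to 1.57 CPM in Con and 0.341 to 2.496 in Ade (adjusted p = 0.195), and 33.6% of its windows are shared, mainly with the opposite-strand gene Zbtb37.

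Serpina10 and the injured tubule markers ranked the Ade mice in the same order. The summed level of 5 of 5 injured tubule markers (Havcr1, Lcn2, Krt20, Vcam1 and Spp1) was 1421 to 1796 CPM in Con, 5339 to 17694 in Ade and 3029 to 11734 in Ade + IMC. Ade mice 207, 208, 308, 409, 408 and 407, in falling order of Serpina10, had 17694, 17401, 13456, 10170.4, 7453 and 5339 CPM of these markers. This pair was chosen after the values were seen, and Serpina1b ranked the Ade mice in the same order too. In the Ade + IMC group mouse 310 was highest on both, but mouse 412 was lowest for Serpina10 and mouse 311 for the sum. The part of tubule injury in the Serpina10 values was not tested.

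Serpine2 (protease nexin-1), a cell-surface inhibitor of thrombin and urokinase, rose in both adenine groups. Con mice had 28.1, 36.7, 34.4, 27.8 and 26.8 CPM, Ade mice 111 to 166 (median 149) and Ade + IMC mice 102 to 128 (median 119.6). Both adenine groups were above Con and overlapped each other. It rose 4.78-fold in Ade (log2 fold change 2.26 ± 0.12, adjusted p = 1.42e-08) and 3.75-fold in Ade + IMC. Serpini1 (neuroserpin), an inhibitor of tissue-type plasminogen activator, rose by 0.39 ± 0.14 on the log2 scale in Ade (adjusted p = 0.0228), with overlapping ranges.

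The inhibitor of plasmin itself fell. Serpinf2 (alpha-2 antiplasmin) had 85.4, 59.3, 74.9, 101.5 and 83.4 CPM in Con, 8.01 to 34.6 in Ade with a median of 17.03, and 15.6 to 45.8 in Ade + IMC with a median of 29.8. No adenine-fed mouse reached the lowest Con mouse. The log2 fold change was -2.11 ± 0.26 in Ade (adjusted p = 1.69e-05) and -1.52 ± 0.23 in Ade + IMC (adjusted p = 0.000118). Proximal tubule markers were lower in the same mice: 9 of 9 tested were called lower in Ade, where 32.2% of all genes were, and the sum of all 10 was 21848 to 28535 CPM in Con, 2214 to 11844 in Ade and 5487 to 16505 in Ade + IMC. Mouse 207 was the lowest Ade mouse and mouse 407 the highest, both for Serpinf2 and for this sum. In the Ade + IMC group the extremes were other mice, with Serpinf2 lowest in 211 and highest in 310 and the sum lowest in 311 and highest in 412. The part of the proximal tubule markers in the Serpinf2 result was not tested.

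Serping1 (C1 inhibitor), which blocks the first proteases of complement and plasma kallikrein, rose from 56.5, 82.0, 83.6, 60.6 and 69.8 CPM in Con to 263 to 445 in Ade (median 416) and 291 to 532 in Ade + IMC (median 408). Its log2 fold change was 2.48 ± 0.16 in Ade (adjusted p = 5.93e-08) and 2.52 ± 0.17 in Ade + IMC. Serpinf1 (pigment epithelium-derived factor), which inhibits no protease, rose from 1.61, 3.61, 3.66, 2.34 and 2.48 CPM in Con to 12.6 to 20.2 in Ade (median 16.8) and 12.2 to 21.1 in Ade + IMC (median 16.2). Its log2 fold change in Ade was 2.67 ± 0.21 (adjusted p = 2.85e-07). For both genes the groups on adenine lay above Con and overlapped each other.

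Serpinh1, the collagen chaperone HSP47, was among the most abundant members per kilobase in each group. Con values were 133, 130.2, 146, 147 and 159.8 CPM, Ade values 332 to 427 (median 368) and Ade + IMC values 255 to 352 (median 323). The adenine groups overlapped, and both were above Con. It rose 2.66-fold in Ade (log2 fold change 1.41 ± 0.10, adjusted p = 7.77e-08) and 2.16-fold in Ade + IMC (log2 fold change 1.11 ± 0.09). Fibroblast markers rose in the same kidneys, 8 of 8 in Ade, where 35.1% of all genes were called higher, from a sum of 341 to 424 CPM in Con to 2679 to 3308 in Ade and 2024 to 3062 in Ade + IMC, and their part in the Serpinh1 result was not tested.

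The 5 clade B genes that could be tested were all called higher in Ade, where 35.1% of all genes were, by 2.86-fold or less. Serpinb6b, of the Serpinb6 group of serine protease inhibitors, went up 2.86-fold in Ade, from 9.80 to 13.1 CPM in Con to 27.7 to 39.9. Serpinb6a, an inhibitor of cathepsin G, had 32.8, 38.3, 42.0, 30.5 and 29.9 CPM in Con, 68.8 to 93.9 in Ade (median 81.4) and 58.5 to 84.5 in Ade + IMC (median 63.1) (log2 fold change in Ade 1.25 ± 0.11, adjusted p = 7.79e-07). Serpinb9, the inhibitor of granzyme B, had 40.1, 45.9, 41.0, 37.0 and 30.4 CPM in Con, 60.7 to 77.9 in Ade (median 68.6) and 63.0 to 70.9 in Ade + IMC (median 66.6) (log2 fold change in Ade 0.86 ± 0.10, adjusted p = 1.13e-05). Serpinb1a, an inhibitor of neutrophil elastase, had 19.7, 22.2, 20.9, 22.2 and 27.3 CPM in Con, 29.4 to 41.6 in Ade (median 33.3) and 23.8 to 31.6 in Ade + IMC (median 28.0) (log2 fold change in Ade 0.64 ± 0.11, adjusted p = 0.000226). For Serpinb1a the Ade + IMC range overlapped Con, and for the other 3 genes it did not. Serpinb8 rose by 0.38 ± 0.12 (adjusted p = 0.0171) with overlapping ranges.

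**Figure D2:**
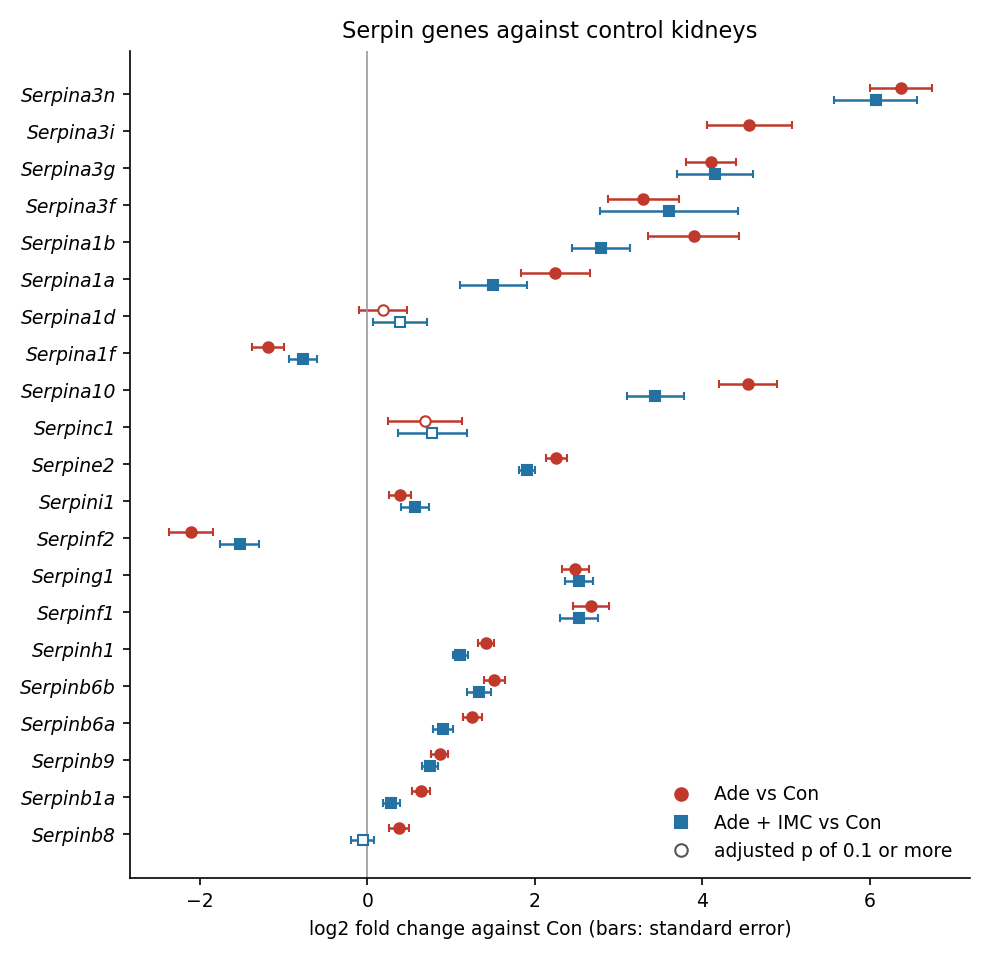
Points give the log2 fold change of 21 tested members against Con for Ade (red circles) and Ade + IMC (blue squares), with bars of 1 standard error and open symbols for an adjusted p of 0.1 or more. Serpina3n lies farthest right at 6.37 and 6.07, and Serpinf2 and Serpina1f lie on the left of 0 in both comparisons. Both comparisons use the same Con mice.

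The other 15 members did not pass the filter on low counts and have no test here. Serpinb9b had 1 read in all Con mice together and 3 to 8 in each Ade mouse, and 37 reads in all Ade mice gave a ratio of 32.0 with an interval of 5.39 to 1296. Serpinb5 (maspin) had 3 reads in Con and 34 in Ade, ratio 9.79 (3.08 to 49.8), but its Ade mice ran from 0 to 14 reads. Serpinb2, known from leukocytes and keratinocytes, had 0 reads in Con and 9 in Ade. Heparin cofactor (Serpind1), the thyroxine and corticosteroid carriers Serpina7 and Serpina6, and Serpine3 had means under 1 CPM in all 3 groups. Serpina16, Serpina1c, Serpina1e, Serpina3c, Serpina3k, Serpinb1b and Serpinb6c complete the family, and the counts of Serpina1c and Serpina1e share the ambiguity of the Serpina1 copies. A count of 0 in the smallest Con library allows up to 3 reads, or 0.433 CPM, and these intervals cover counting error only.

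**Figure D3:**
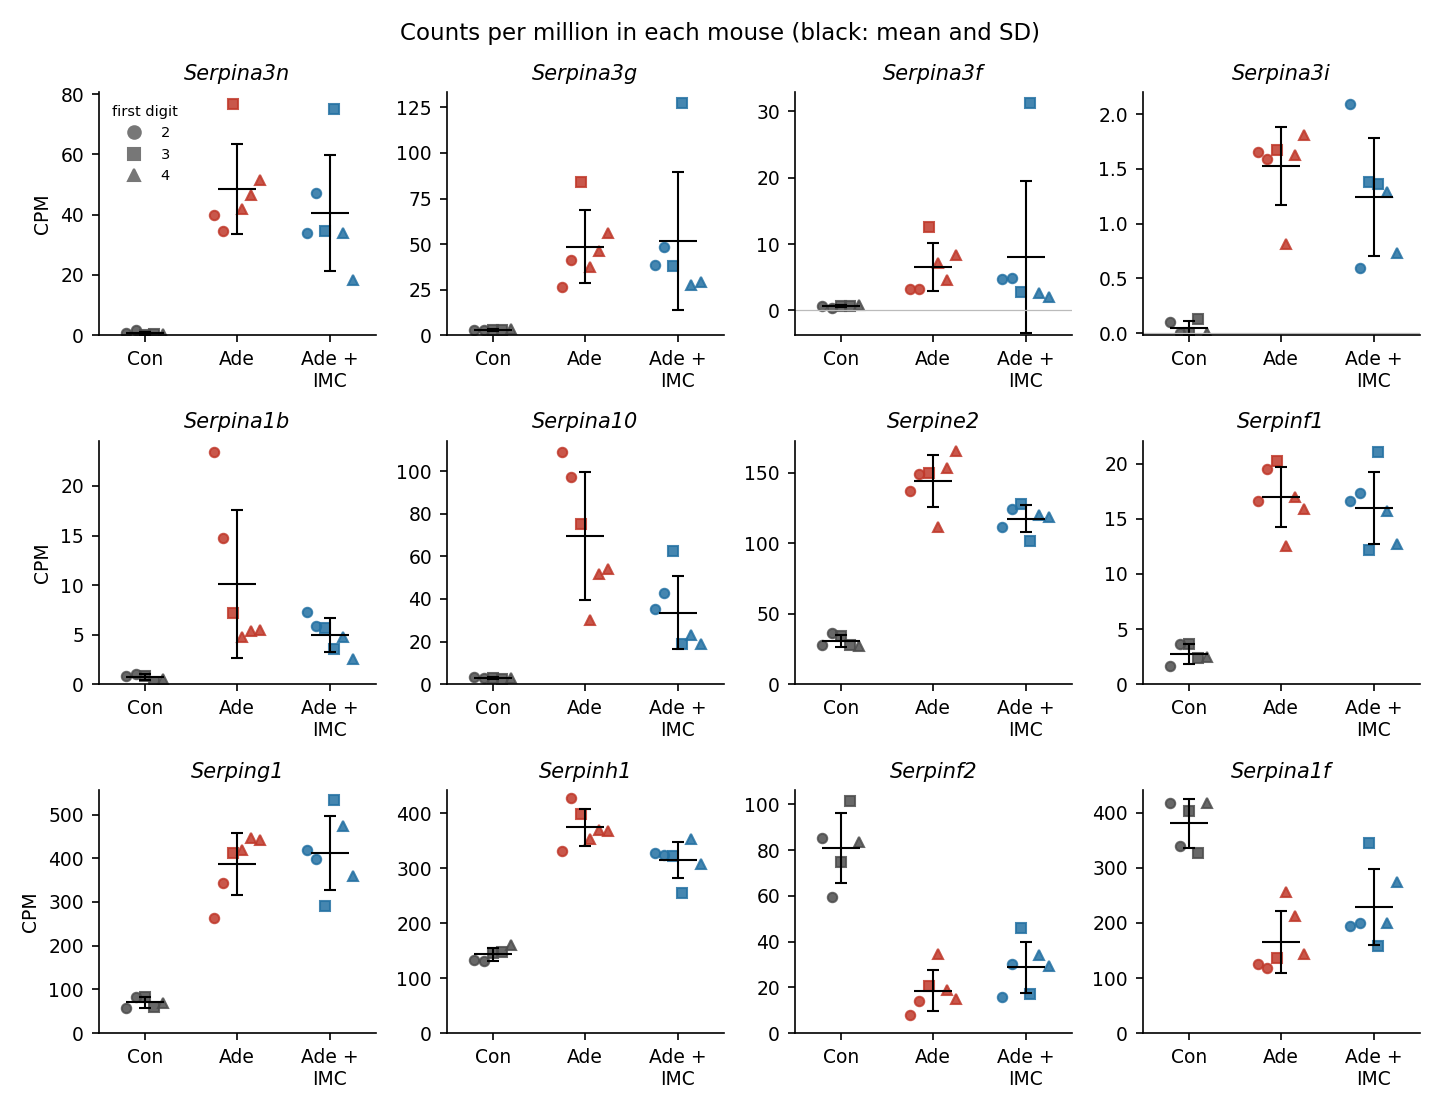
Each panel shows 1 gene in CPM on a linear axis, with 1 point per mouse, the shape giving the leading digit of the mouse's number, and black bars for the mean and SD. The 10 risers have every Con mouse below every adenine-fed mouse, Serpinf2 has every Con mouse above, Serpina1f has every Con mouse above every Ade mouse, and mouse 311 stands alone at the top of the Ade + IMC group for Serpina3g and Serpina3f.

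Ade + IMC kidneys also differed from Con, in the same directions. edgeR called 63.2% of 14578 genes, 30.9% higher and 32.3% lower, and among 21 members tested it called 16 higher and 2 lower. Of the 16, 2 (Serpina1b and Serpina3f) passed the filter on low counts only through the Ade + IMC mice, so they too had to differ. The pass of Serpina3n, with the same few Con reads as above, rested mainly on the Ade + IMC mice. Serpinb8 was no longer called (log2 fold change -0.06 ± 0.14, adjusted p = 0.748), along with Serpina1d and Serpinc1, and Serpina3i was not tested. Ranges stood apart upward for 15 of the 21 tested members, against 20.5% of all genes, and downward for 1, against 16.4%. Because both comparisons use the same Con mice, their values are given side by side and not as a repeat.

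The comparison of Ade + IMC with Ade asks whether the serpin response was lower when IMC was added to the adenine diet. Limma's moderated test on log2(normalized count + 1) over 14696 genes called 0 genes at an adjusted p below 0.1 (0% of all genes), and 0 of 22 members. edgeR and DESeq2 on the recovered reads called 0 members as well. At an unadjusted p below 0.05, 7 members were lower and 1 was higher, where 6.72% of all genes passed, 3.35% lower and 3.37% higher. The median log2 fold change was -0.28 over the tested members and 0.01 over all genes, and 16 of 22 were below 0. For none of the 22 tested members did the ranges of the 2 groups stand apart, against 0.0953% of all genes downward and 0.122% upward. Among the untested members they did for Serpina7, with 3 to 13 reads in each Ade mouse (0.501 to 1.65 CPM) and 0 to 4 in each Ade + IMC mouse (0 to 0.454 CPM).

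Among the tested members the largest difference was that of Serpina10, with 519 ± 224 normalized counts in Ade and 248 ± 127 in Ade + IMC (SD, n = 6 each). Its log2 fold change was -1.08 ± 0.35 (limma p = 0.0078, adjusted p = 0.711), and a two-sided exact permutation test over the mice gave p = 0.026. Mouse numbers begin with 2, 3 or 4, a label whose meaning is not given. Within these digits the difference in mean log2 level was -1.42, -1.14 and -1.10, where the digit 3 holds 1 Ade mouse only. With the digit as a block the log2 fold change was -1.22 ± 0.25 and the adjusted p 0.0639 (0.0639 to 0.711 over the settings tried, and 0.185 to 0.996 with single mice left out and no block), and 0.408% of all genes were then called lower and 0.497% higher. Serpina10 was thus called with the block and not without it. The injured tubule markers differed in the same direction between these groups, 5 of 5 below 0, with a median log2 fold change of -0.91 and 0 called without the block, and -1.02 and 1 called lower with it, and their part in the Serpina10 difference was not tested. At an unadjusted p below 0.05 the block gave 9 members lower and 2 higher, against 6.26% and 7.4% of all genes.

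Serpinb1a was the other member called only with the block. It had 257 ± 33.0 normalized counts in Ade and 206 ± 21.7 in Ade + IMC, a log2 fold change of -0.31 ± 0.10 (adjusted p = 0.711) without the block and -0.34 ± 0.08 (adjusted p = 0.0937, and 0.0891 to 0.711 over the settings tried) with it. With single mice left out and no block it was 0.201 to 0.996. The difference was -0.39, -0.33 and -0.30 within the digits. All 6 Ade + IMC mice lay at or below 31.6 CPM, and 5 of the 6 Ade mice were above that value.

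Serpine2, Serpinb6a and Serpinh1 differed by little but in a narrow spread. The log2 fold change was -0.30 ± 0.09 for Serpine2 (exact permutation p = 0.0152), -0.31 ± 0.10 for Serpinb6a (exact p = 0.0195) and -0.27 ± 0.09 for Serpinh1 (exact p = 0.00433, where 6 against 6 mice can give no less than 0.00216). The adjusted p was 0.711 for each in limma and 0.203, 0.137 and 0.248 with the block. All 3 were lower within each digit, of which the digit 3 has 1 Ade mouse.

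Serpina1f and Serpinf2, which fell with adenine, were the tested members with the largest differences upward. Serpina1f had 1232 ± 410.1 normalized counts in Ade and 1694 ± 499 in Ade + IMC (log2 fold change 0.47 ± 0.21, limma adjusted p = 0.731). Serpinf2 had 139 ± 67.1 and 212 ± 82.1 (log2 fold change 0.65 ± 0.32, limma adjusted p = 0.745). Proximal tubule markers had a median log2 fold change of 0.42 between the same groups, with 0 of 9 called. Distal nephron and collecting duct markers had a median of 0.45, with 0 of 8 called. With the digit as a block 2 of 8 were called higher, where 0.497% of all genes were. The part of these markers in the values of Serpina1f and Serpinf2 was not tested.

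No difference was called for Serping1 or the Serpina3 genes, with or without the block. Serping1 had 2891 ± 526 normalized counts in Ade and 3054 ± 644 in Ade + IMC (log2 fold change 0.07 ± 0.16), and its sign turned when Ade mouse 207 or Ade + IMC mouse 311 was left out. Serpina3g differed by -0.06 ± 0.35, Serpina3f by -0.30 ± 0.57, Serpina3i by -0.34 ± 0.31 and Serpina3n by -0.35 ± 0.28. The sign of Serpina3f and of Serpina3g turned, to 0.30 and 0.070, with edgeR on the recovered reads.

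**Figure D4:**
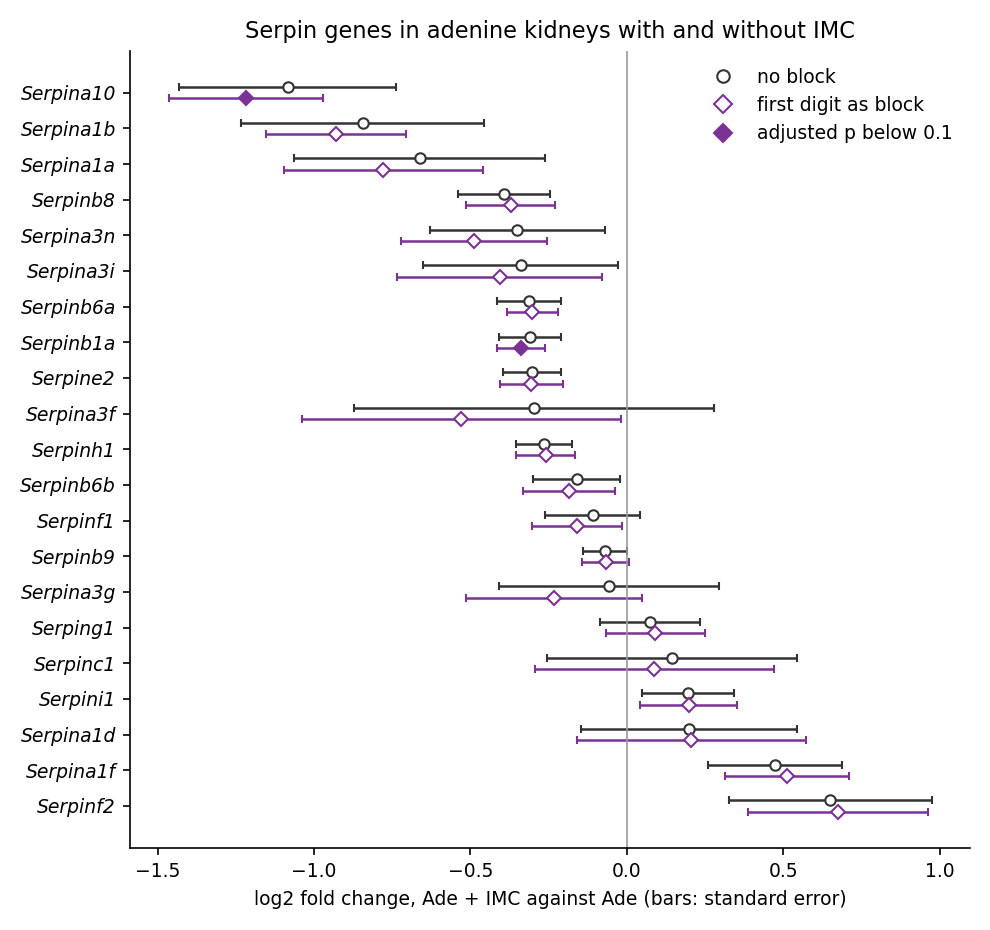
Points give the log2 fold change of Ade + IMC against Ade for 21 tested members in rising order, without a block (open circles) and with the number's leading digit as a block (diamonds, filled for an adjusted p below 0.1), with bars of 1 standard error. Serpina10 at -1.22 and Serpinb1a at -0.34 are the filled points, and 15 of 21 circles lie below 0.

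**Figure D5:**
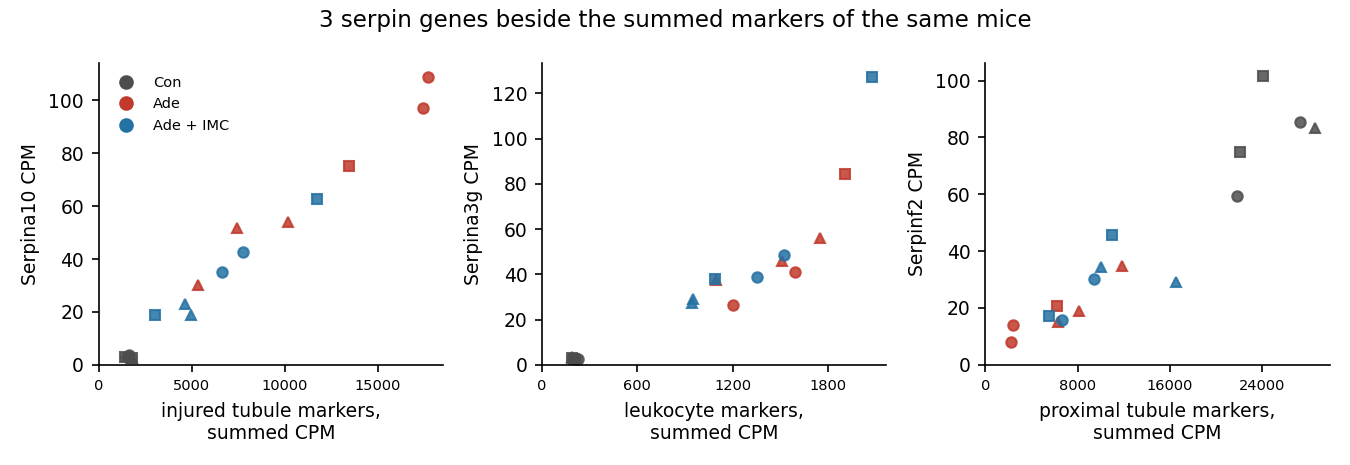
CPM of 3 members is plotted against the summed CPM of a marker list in the same 17 mice, with shapes for the leading digit of the mouse's number. The pairs were chosen after their values were seen. Serpina10 stands beside the injured tubule sum, with mice 207 and 208 at the upper right, Serpina3g beside the leukocyte sum, with mouse 311 at the upper right, and Serpinf2 beside the proximal tubule sum.

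Proteases and receptors that meet serpins were read from a list of 37 genes, of which 21 were tested in Ade against Con. Of these, 12 were called higher and 8 lower, where 35.1% and 32.2% of all genes were, and the median log2 fold change was 0.53 against 0.02 over all genes. The largest changes were those of Ctss (cathepsin S), which rose by 3.97 ± 0.18 on the log2 scale, F10, the zymogen of the protease that Serpina10 inhibits, which rose by 3.39 ± 0.37 from a mean of 0.681 to 7.37 CPM, Ctsk (cathepsin K), which rose by 2.75 ± 0.16, and Lrp2, which fell by 2.65. Lrp2 is a receptor of the proximal tubule. F10 passed the filter on low counts only through the Ade mice, as did 1 other gene of the list. Other genes are named for their role, after their values were seen. Plat, the tissue-type plasminogen activator, rose by 1.17 ± 0.15 and Plaur, the urokinase receptor, by 1.62 ± 0.28, while Plau, urokinase itself, fell by 0.68 on the log2 scale, from a mean of 932 to 574 CPM. The complement proteases C1ra and C1s1, targets of Serping1, rose by 2.07 ± 0.16 and 2.23 ± 0.16. Lrp1, a receptor that clears serpin complexes, rose by 1.54 ± 0.11. In Ade + IMC against Ade 0 of 22 were called, and 1 was higher and 1 lower at an unadjusted p below 0.05, near the 3.37% and 3.35% of all genes.

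Collagen chains and folding enzymes, the partners of Serpinh1, were mostly higher. In Ade against Con 15 of 18 were called higher and 2 lower, against 35.1% and 32.2% of all genes, with a median log2 fold change of 1.11. Col1a1 rose by 4.20 ± 0.13, Col3a1 by 4.13 ± 0.14, Col1a2 by 3.07 ± 0.11 and Col5a1 by 2.41 ± 0.12, whereas the prolyl hydroxylase subunits P4ha1 and P4hb fell by 0.38 and 0.45 on the log2 scale. In Ade + IMC against Ade 0 of 18 were called, and 4 were lower at an unadjusted p below 0.05, where 3.35% of all genes were, among them Col3a1 at -0.40 ± 0.14.

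Protease inhibitors outside the family were listed beside the serpins. Of 23 tested, 12 were called higher and 4 lower in Ade against Con, against 35.1% and 32.2% of all genes, with a median log2 fold change of 0.58. Timp1, an inhibitor of matrix metalloproteinases, rose by 6.86 ± 0.39 and Slpi, an inhibitor of leukocyte elastase, by 5.95 ± 0.73, and Itih4 and Itih3, heavy chains of the inter-alpha-trypsin inhibitor family, by 4.24 ± 0.43 and 2.87 ± 0.34. These 4 passed the filter on low counts only through the Ade mice, so they had to differ. Between Ade + IMC and Ade 0 of 23 were called, Timp1 differing by -0.94 ± 0.36 (limma adjusted p = 0.711).

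Many serpins are made by the liver, so liver genes were read in the same kidneys. Of 8 hepatocyte markers, 4 of 6 tested were called higher in Ade and 1 lower, against 35.1% and 32.2% of all genes, with a sum of 73.6 to 104 CPM in Con, 294 to 456 in Ade and 149 to 432 in Ade + IMC. The mean level of Fgg, a fibrinogen chain, was 10.7 CPM in Con and 146 in Ade, whereas that of Alb (albumin) was 25.3 in Con and 9.50 in Ade. The markers thus did not move as 1 set, and their part in the clade A results was not tested.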

How the data were processed

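Kidney RNA-seq counts of Con, Ade and Ade + IMC mice were read from 2 deposited tables. The authors deposited raw counts for Con and Ade, and counts normalized with DESeq2's median of ratios, a signal scale, for Ade and Ade + IMC. The study's methods name STAR and mm10 with 50-base single-end reads, while the processing notes name Trimmomatic 0.39, Bowtie2 2.2.5 and HTSeq 0.9.1. Which aligner made the tables, the annotation release and the strand setting are not given in the sources used here. Dividing by the smallest step gave whole reads for 100% of normalized values (tolerance 1e-06 reads), and 0 values differed from the raw counts of the 6 Ade mice. Each table holds genes with 5 or more reads. Another deposited file holds fold changes and p-values of the authors' own comparison with gene names, of which only the names were used. Ade and Ade + IMC were compared with Con by edgeR 4.0.16 (quasi-likelihood test, TMM scaling, filterByExpr), and Ade + IMC with Ade by limma 3.58.1 with trend on log2(normalized count + 1), for genes with a mean normalized count of 10 or more. Calls use a Benjamini-Hochberg adjusted p below 0.1 over all genes tested. CPM use TMM over the 17 mice. P-values measure the spread between mice. Fold changes of limma understate those of low genes. DESeq2 1.42.0 on reads, other scalings, filters, pseudocounts, the leading digit of the mouse's number as a block and leaving out each mouse in turn were tried, and the procedures were checked on simulated data. No 2 libraries of a group agreed within sampling noise (lowest chi-square per degree of freedom 4.21). Positions and exons are from GENCODE M21 (GRCm38), where all 37 members were found, and promoters from RefSeq. Members, lists and tests were chosen with earlier results of these data known. Members given in detail were the 10 called with the largest rise and up to 8 with the largest fall in Ade, the 5 with the smallest p in Ade + IMC against Ade, and the 5 highest per kilobase in Con. 1 of these is counted but not reported here. Other members are given more briefly, and from each list up to 4 called genes with the largest change in Ade are named, with exceptions said where they stand.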

Additional observations from a re-analysis of the deposited data

Results flagged for a closer look

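Among 48 groups of values checked, 4 held a mouse far from the rest of its group, where chance alone gives about 1 in 20. Mouse 311 of the Ade + IMC group had 31.2 CPM of Serpina3f, and the other 5 had 2.05 to 4.90. The same mouse had 127 CPM of Serpina3g against 27.5 to 48.4 in the others, and its leukocyte marker sum, 2073 CPM, was the highest of all mice. Con mouse 403 had 3.53 CPM of Serpina3g against 2.60 to 2.86 in the other 4, and Ade mouse 407 had 0.812 CPM of Serpina3i, 6 reads, against 1.59 to 1.81 in the other 5.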

How the results depend on the processing

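In Ade against Con and Ade + IMC against Con, the members given in detail kept their direction and their side of the threshold in all alternatives run. With single mice left out, 17 to 18 members were called higher and 2 lower in the first, and 16 to 18 higher and 2 lower in the second. With all mice, 35.1% of all genes were called higher and 32.2% lower in the first, and 30.9% and 32.3% in the second. Of the members not called, Serpinc1 fell to an adjusted p of 0.0455 in the first and 0.0616 in the second with 1 mouse left out (0.0919 at the lowest under the other alternatives of the second), Serpina1d ran from -0.08 to 0.35 in the first and Serpinb8 from -0.12 to 0.024 in the second. In Ade + IMC against Ade, limma with the leading digit of the mouse's number as a replicate block called 2 members lower, 73 genes higher and 60 lower, and edgeR with the replicate block (added after the data were seen) called 2 members lower, 51 genes higher and 53 lower. Over all genes, mice of these 2 groups with the same digit deviated together with a mean r of 0.16 over 12 pairs (range -0.28 to 0.51), and those with other digits with -0.08, and not every same-digit pair deviated together, so whether the digit pairs the mice is not shown. DESeq2 on recovered reads called 21 genes higher and 16 lower, none of them a member. At an unadjusted p below 0.05 there were 1 member higher and 7 lower, and 495 genes higher and 493 lower. Serpina3f turned to 0.30 with edgeR and 0.30 with DESeq2 on recovered reads, and Serpina3g to 0.070 and 0.082. Leaving out 1 mouse at a time, Serpina3g ran from -0.37 to 0.12 and Serping1 from -0.033 to 0.17. The cause of these changes was not tested. The filter on low values left 22 of the 37 members in the test. At an unadjusted p below 0.05, DESeq2 on all 37 gave 10 lower and 1 higher, against 2.95% and 2.74% of all genes. Limma on all 37 with no filter gave 9 lower and 1 higher at that cutoff, against 3.27% and 3.34% of all genes.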
